A study of Rattus norvegicus with 8 samples.

Results

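The data concern 10 genes of the mTORC1 pathway in rat epitrochlearis, a forelimb muscle made mostly of fast-twitch fibres, after a recovery meal that followed swimming. These were the 5 activators Mtor, Rptor, Mlst8, Rheb and Rps6kb1 and the 5 inhibitors Deptor, Tsc1, Tsc2, Ddit4 and Sesn1, chosen by name. All 10 were measured, by 15 probe sets with a single gene symbol, among 14217 genes so named on the array. Male Sprague-Dawley rats, labelled as 6 weeks old, had practised swimming for 3 days and had been given 5 g of diet on the day before. They swam for 2 h and received by gavage, straight after it, a 44 kJ meal of carbohydrate with either an amino acid mixture (AAM, 4 rats) or whey protein hydrolysate (WPH, 4 rats). The comparison asks whether whey peptides act differently on muscle gene expression from free amino acids of like composition. Every rat swam and was fed, so neither the effect of exercise nor that of feeding was measured, and the sources used here do not give the hours between meal and sampling. One array was run per rat.

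mTORC1 is a protein kinase complex that switches muscle cells towards making protein. Amino acids bring it to the lysosome through the Rag GTPases, and insulin frees its activator Rheb from the TSC complex, so a meal after exercise engages both inputs. This control works mostly through protein location and phosphorylation, which an array does not see. The transcript levels of some inhibitors do respond to conditions: Ddit4 is induced by hypoxia, glucocorticoids and energy stress, and Sesn1 by p53 and FoxO factors.

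The upstream promoters of these 2 stress-induced inhibitors are shown because their transcripts are the ones best known to be set by transcription. Each line gives the 250 bases before the transcription start in RefSeq's GRCr8 annotation, 5′ to 3′ on the gene's strand, with matches to 4 short motifs in capitals. The Ddit4 promoter lies at chr20:28437038-28437287 on the minus strand and the Sesn1 promoter at chr20:46948469-46948718 on the plus strand.
Ddit4: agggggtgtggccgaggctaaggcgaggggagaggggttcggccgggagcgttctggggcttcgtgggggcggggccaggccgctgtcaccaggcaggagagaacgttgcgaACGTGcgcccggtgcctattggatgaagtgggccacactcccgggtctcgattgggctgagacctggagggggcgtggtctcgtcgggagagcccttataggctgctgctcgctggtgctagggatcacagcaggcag
Sesn1: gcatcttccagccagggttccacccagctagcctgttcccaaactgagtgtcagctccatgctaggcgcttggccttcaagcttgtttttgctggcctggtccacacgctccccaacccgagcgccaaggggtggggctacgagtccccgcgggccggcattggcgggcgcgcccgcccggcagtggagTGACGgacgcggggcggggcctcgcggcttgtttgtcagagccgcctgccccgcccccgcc
Both strands were searched for ACGTG (the core of the hypoxia response element), TGACG (a core part of the cAMP response element), AGAACA (a core part of the glucocorticoid response element) and GTAAACA (a FoxO motif). Ddit4 held 1 ACGTG, 138 to 134 bases before the start, and Sesn1 held 1 TGACG, 61 to 57 bases before it. Such matches are common: 16.9% of 27457 promoters of this length held ACGTG, 19.0% TGACG, 17.1% AGAACA and 3.25% GTAAACA. A match describes the letters in this window and does not show that a factor binds. Of the 10 genes, 8 had a promoter in the table. The motifs were not particular to Ddit4 and Sesn1. ACGTG also matched in Rheb and Tsc2, TGACG in Rheb and Tsc1, and AGAACA in Rps6kb1.

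The values analysed are the authors' deposited levels, on a log2-like scale from 5.28 to 14.2. Their differences between arrays are minute, with a median SD per probe set of 3.69 millionths of a unit over the 8 arrays, and they cannot be read as fold changes. Values are therefore given as deviations from the probe set's mean over the 8 arrays, in thousandths or millionths of a unit. Sizes are standardized differences: the mean of WPH less the mean of AAM, in units of the pooled within-group SD. Among marker genes of the labelled tissue, the 13 fast fibre markers, Ckm and Pvalb among them, had mean levels of 11.3 to 14.2, and the 7 measured lymphocyte markers had 5.94 to 6.85. Other lists reached into the fast fibre range, such as fibroblast and matrix markers at 7.24 to 13.3 and adipocyte markers at 6.09 to 13.8. Levels of different probe sets do not compare amounts of RNA, so these values describe signal only. In whole muscle, fewer cells of a type and less RNA per cell cannot be told apart.

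None of the 10 genes differed between the meals past the threshold. By limma, 0 of the 15 probe sets had an adjusted p below 0.05, and 0 of 15 had an unadjusted p below 0.05. Over all 31042 probe sets tested, 0% were called at the adjusted threshold and 3.58% (1110) had an unadjusted p below 0.05. The AAM and WPH arrays overlapped in every one of the 15 probe sets. Full separation was rare in any case, at 2.23% of all probe sets, so its absence among 15 does not set the members apart. Of the 15, 10 were higher after WPH, against 47.3% of all probe sets. The standardized differences of the 15 all lay within 1 SD, against 17.2% of all probe sets at 1 SD or more. Of the 15 intervals at 95%, 7 included a difference of 1 SD in both directions, and each of the other 8 included it in 1 direction. The upper bound lay below 1 SD for Ddit4 (0.70), Mlst8 (0.87), Rptor (0.98) and the brighter probe set of Rheb (0.77). The lower bound lay above -1 SD for both probe sets of Rps6kb1 (-0.81 and -0.83) and for the dimmer ones of Rheb (-0.96) and Tsc1 (-0.92). By the exact permutation test of single probe sets, whose smallest possible p is 0.0286, p ran from 0.343 for Ddit4 to 0.971 for the dimmer probe set of Sesn1.

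**Figure D1:**
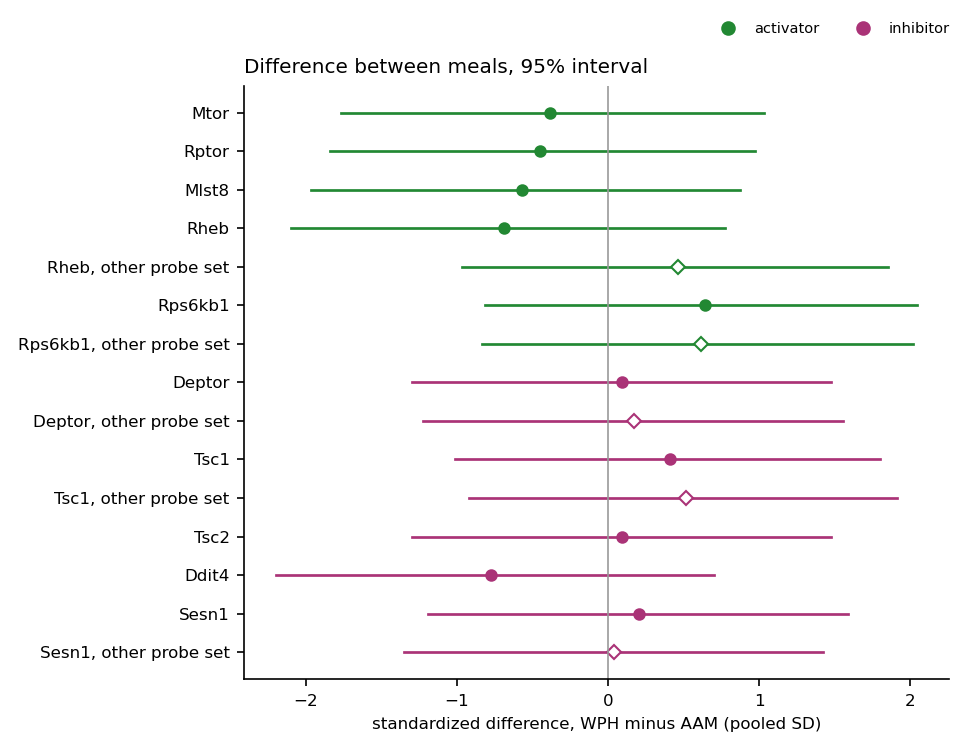
The standardized difference (WPH minus AAM, in pooled SDs) of each of the 15 probe sets is drawn with its 95% interval, n = 4 arrays per group; filled circles mark the probe set of highest mean level of a gene, open diamonds its other probe set, green activators and purple inhibitors. All 15 intervals span 0, and the points run from -0.78 for Ddit4 to 0.64 for Rps6kb1.

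Among the activators, the 3 core parts of the complex were lower on average after WPH by less than their spread. Mtor encodes the kinase itself. Its deviations were -1.08, -0.77, 0.17 and 2.81 millionths on AAM replicates 1 to 4 and -0.80, 0.04, 1.12 and -1.49 millionths on WPH replicates 1 to 4. AAM replicate 4 was the highest array, and the other 7 were intermixed. The standardized difference was -0.38 (95% interval -1.77 to 1.04), and without AAM replicate 4 it was 0.29. Rptor encodes raptor, the subunit that recruits substrates. It had -0.19, -1.77, 0.95 and 2.32 millionths after AAM and 0.08, -1.29, -1.08 and 1.003 millionths after WPH. Again AAM replicate 4 was the highest array. Its standardized difference of -0.45 (-1.84 to 0.98) became 0.013 without that array and -1.17 without AAM replicate 2. Mlst8 encodes a small subunit that steadies the kinase domain and is shared with mTORC2. It had -3.69, 13.3, 0.80 and -2.80 millionths after AAM and 4.07, -2.22, -8.64 and -0.77 millionths after WPH. AAM replicate 2 stood highest and WPH replicate 3 lowest, and the standardized difference of -0.57 (-1.97 to 0.87) became 0.0012 without AAM replicate 2.

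Rheb, the small GTPase that switches the kinase on at the lysosome, was measured by 2 probe sets that gave opposite signs. The brighter one, at a mean level of 11.4, had 13.6, -1.84, -4.60 and 2.64 millionths after AAM and 0.49, 3.99, -4.27 and -9.98 millionths after WPH. Its highest array was AAM replicate 1 and its lowest WPH replicate 4. The standardized difference was -0.69 (-2.10 to 0.77), against 0.46 (-0.96 to 1.85) for the dimmer probe set. By the brighter one it was -0.22 without AAM replicate 1 and -1.05 without AAM replicate 3. Across the 8 arrays the 2 probe sets nevertheless followed each other (Pearson r = 0.78, exact permutation p = 0.016, 0.027 after Benjamini-Hochberg adjustment over the 5 genes with 2 probe sets; Spearman rho = 0.86, adjusted p = 0.018). Without AAM replicate 1 and WPH replicate 4, r was 0.65 over the 6 remaining arrays (exact permutation p = 0.178).

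Rps6kb1 encodes S6 kinase, the substrate through which the complex drives ribosomal protein S6 and cell size. Its brighter probe set had 1.56, -0.41, -5.15 and -4.34 millionths after AAM. After WPH it had 6.22, 6.20, -10.9 and 6.80 millionths. WPH replicates 1, 2 and 4 lay together above every AAM array, and WPH replicate 3 lay below all of them. With all arrays the standardized difference was 0.64 (-0.81 to 2.05, exact permutation p = 0.4). Without WPH replicate 3 it was 3.42 (exact permutation p = 0.057, where the smallest possible is 0.0286), and limma's adjusted p over all probe sets did not pass the threshold. The other probe set of Rps6kb1 did not follow it closely (r = 0.33, exact permutation p = 0.441; rho = 0.29, exact permutation p = 0.501). There the difference was 0.62 with all arrays and 0.94 (exact permutation p = 0.343) without WPH replicate 3, and WPH replicate 4 was the highest array, at 302 millionths.

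**Figure D2:**
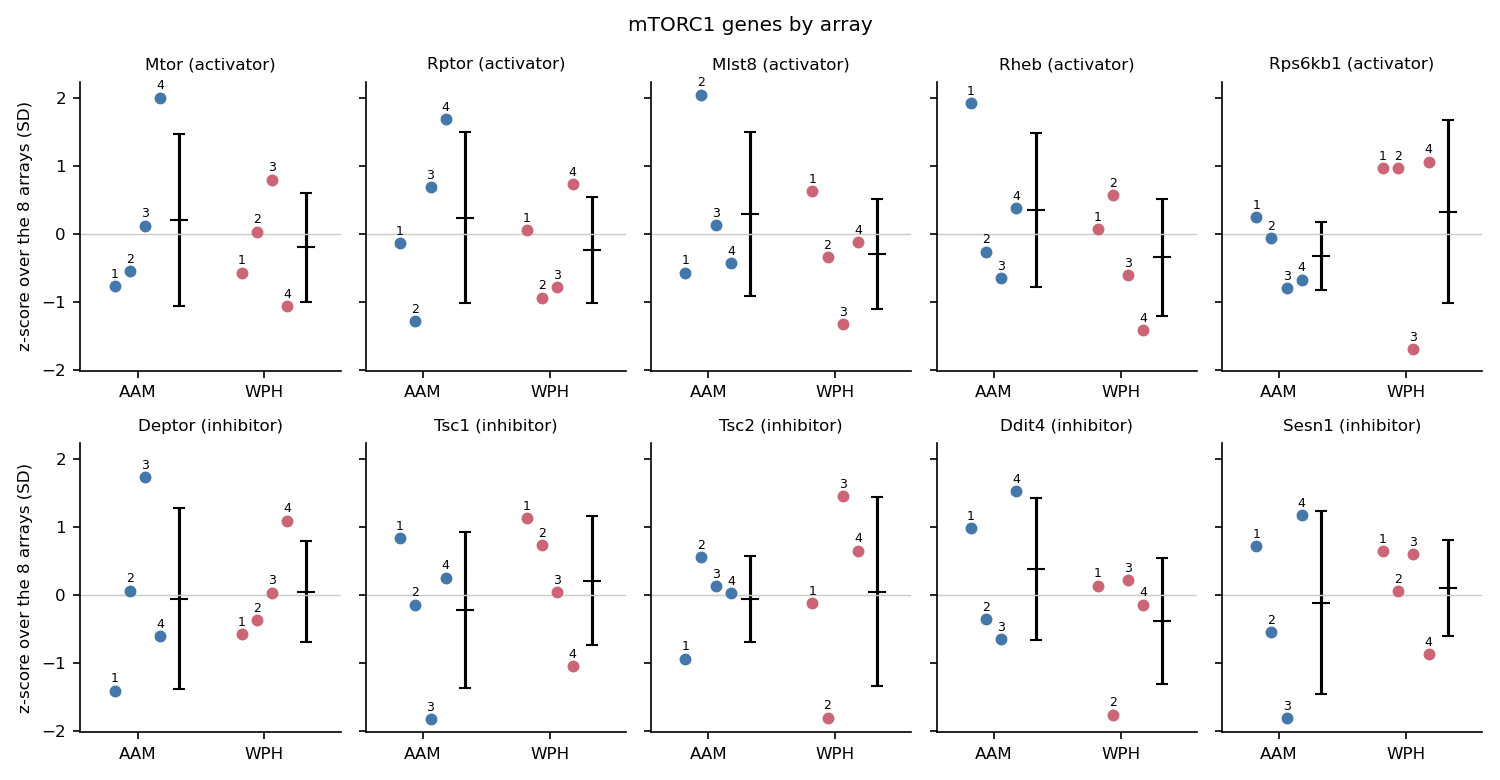
Each panel plots 1 gene by its brightest probe set, as z-scores over the 8 arrays (deviation from the mean in SDs) for AAM (blue) and WPH (red), with replicate numbers beside the points and bars for the group mean ± SD, n = 4. The groups overlap in all 10 panels, and in the Rps6kb1 panel WPH replicate 3, at -1.69, lies apart from the other 3 WPH arrays, at 0.96 to 1.06.

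Among the inhibitors, Ddit4, Deptor, Sesn1 and the brighter probe set of Tsc1 ranged over 0.907 to 19.3 thousandths on the deposited scale, and Mtor, Rptor and Mlst8 over 4.09 to 21.9 millionths. The range did not divide by role. The inhibitor Tsc2 ranged over 27.6 millionths and the dimmer probe set of Tsc1 over 6.79 millionths, while the dimmer one of the activator Rps6kb1 ranged over 512 millionths. A deposited range is not a fold change, and the sources used here do not say how the authors' processing sets it. Ddit4 encodes REDD1, which restrains the complex through TSC. It had the widest range of the 15 probe sets, 19.3 thousandths, and its SD over the 8 arrays exceeded that of 99.5% of all probe sets. Its deviations were 5.82, -2.04, -3.77 and 8.96 thousandths after AAM and 0.82, -10.3, 1.31 and -0.82 thousandths after WPH. AAM replicates 4 and 1 were the highest arrays and WPH replicate 2 the lowest, and all 4 WPH arrays lay below the AAM median. The deposited difference was -4.49 thousandths ± 4.09 (SE, n = 4 per group), a standardized difference of -0.78 (-2.20 to 0.70, exact permutation p = 0.343). It stayed below 0 whichever array was left out, from -1.17 without AAM replicate 3 to -0.38 without WPH replicate 2.

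Sesn1 encodes sestrin 1, a relative of the leucine sensor that holds back the Rag pathway through GATOR2. The brighter probe set had 306, -231, -766 and 501 millionths after AAM and 275, 27.6, 256 and -369 millionths after WPH. AAM replicate 3 was lowest and AAM replicate 4 highest, so the AAM arrays enclosed all the WPH arrays. The standardized difference was 0.21 (-1.19 to 1.59), and 0.04 for the other probe set. Both probe sets of Sesn1 gave nearly the same order of arrays (r = 0.93, exact permutation p = 0.0011, adjusted 0.0027; rho = 0.90, adjusted 0.011). Without AAM replicate 3 and WPH replicate 4, r was 0.92 (exact permutation p = 0.0083).

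Deptor encodes an inhibitor that binds the kinase directly and is itself degraded when the kinase is active. It had -4.79, 0.23, 5.94 and -2.06 thousandths after AAM and -1.95, -1.24, 0.13 and 3.75 thousandths after WPH. AAM replicate 3 and WPH replicate 4 were the 2 highest arrays, 1 in each group, and AAM replicate 1 the lowest. The standardized difference was 0.09 (-1.30 to 1.48), and 0.17 for the other probe set. The probe sets of Deptor agreed closely over the arrays (r = 0.97, exact permutation p = 9.9e-05, adjusted 0.0005; rho = 0.95, adjusted 0.0057), and without AAM replicate 3 and WPH replicate 4 r was 0.86 (exact permutation p = 0.033).

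Tsc1 and Tsc2 encode hamartin and tuberin, which together form the TSC complex that turns Rheb off. Tsc1 had 762, -124, -1663 and 237 millionths after AAM and 1030, 670, 40.6 and -952 millionths after WPH by its brighter probe set. AAM replicate 3 and WPH replicate 4 were lowest here. The standardized difference was 0.41 (-1.01 to 1.80), or 0.52 by the dimmer probe set, which did not follow the first across arrays (r = 0.36, exact permutation p = 0.382; rho = 0.43, exact permutation p = 0.299) and ranged over only 6.79 millionths. Tsc2 had -7.88, 4.78, 1.11 and 0.26 millionths after AAM and -0.95, -15.2, 12.4 and 5.55 millionths after WPH. WPH replicates 2 and 3 were its lowest and highest arrays, and the standardized difference was 0.09 (-1.30 to 1.48).

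By role, 1 of the 5 activators was higher and 4 were lower after WPH, with a median standardized difference of -0.45, and 4 of the 5 inhibitors were higher and 1 lower, with a median of 0.09. Over all 14217 genes, 46.1% were higher after WPH, 53.9% were lower and the median was -0.06. With quantile normalization the median of the activators was 0.07. That value leaves out Rheb, whose brighter probe set kept no spread there, and Rptor stood at -1.3e-12, so the set of genes differs. Without AAM replicate 4 the median of the activators was 0.013, so its sign is not settled. That of the inhibitors ran from -0.17 without AAM replicate 1 to 0.20 without WPH replicate 2, and was 0.34 with quantile normalization.

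How the members varied with each other was read across all 8 arrays, over the 45 pairs of genes. The strongest relations joined Deptor with Tsc1 and Sesn1, in opposite directions. Pearson r was -0.94 for Deptor with Tsc1 (exact permutation p = 0.0011, 0.0502 after adjustment over the pairs) and -0.89 for Deptor with Sesn1 (p = 0.0028, adjusted 0.063). Spearman rho was -0.88 (exact permutation p = 0.0072, adjusted 0.109) and -0.95 (p = 0.0011, adjusted 0.051). Tsc1 and Sesn1 had r = 0.85 (exact permutation p = 0.0071, adjusted 0.106; rho = 0.79, adjusted 0.157), and Rheb with Deptor had r = -0.84 (p = 0.0095, adjusted 0.107; rho = -0.88, adjusted 0.109). No other pair reached 0.8 by Pearson r. By Spearman rho 4 more did: Rheb with Tsc2 (-0.83), Rheb with Tsc1 (0.81), Mtor with Rps6kb1 (-0.81) and Ddit4 with Sesn1 (0.81), each with an adjusted p of 0.14 (exact permutation). None of the 45 had an adjusted p below 0.05 by either measure. These were the brightest probe sets; with the other probe sets of the genes, r was -0.30 for Deptor and Tsc1 and -0.70 for Deptor and Sesn1.

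The relations of Deptor, Tsc1 and Sesn1 were smaller in size without the 2 arrays at their end, and with 6 arrays none of them passed. Without AAM replicate 3 and WPH replicate 4, r was -0.67 for Deptor and Tsc1 (exact permutation p = 0.122), -0.53 for Deptor and Sesn1 (p = 0.285) and 0.34 for Tsc1 and Sesn1 (p = 0.5). For Rheb and Deptor it was -0.94 (exact permutation p = 0.015, 0.611 after adjustment over the pairs) without those arrays, so this pair did not pass either. Without AAM replicate 1 and WPH replicate 4, the arrays farthest out for Rheb, it was -0.73 (exact permutation p = 0.043, not adjusted). Such relations were not rare on these arrays: 15.8% of the other genes had a correlation of at least 0.8 in size with Deptor, 13.0% with Tsc1, 10.4% with Sesn1 and 8.01% with Rheb, but only 1.41% with Mtor and 1.67% with Ddit4. The first principal component of all probe sets at unit SD, which held 25.5% of the variance, placed AAM replicate 3 and WPH replicate 4 at one end and AAM replicate 1 at the other, and over the 8 arrays its r was 0.99 with Deptor, -0.96 with Tsc1 and -0.87 with Sesn1. Fibroblast and matrix markers, 8 of 8 measured, were also highest on WPH replicate 4 and AAM replicate 3. Their lowest array was WPH replicate 2 (mean z-score -1.03), with AAM replicate 1 at -0.29, so the low end was not shared. Of the 11 marker lists they had the largest r in size with Deptor (0.72) and Tsc1 (-0.75), and they had -0.55 with Sesn1. Their mean z-score was 1.41 on WPH replicate 4, 0.64 on AAM replicate 3 and 0.62 on WPH replicate 3, and -0.29 to -1.03 on the other 5 arrays. The summed level of these 8 genes was 82.83 to 82.88 after AAM and 82.85 to 82.88 after WPH, and no marker is at 0 on this scale. Other lists were near: 4 satellite cell markers had r = 0.67 with Deptor, -0.46 with Tsc1 and -0.49 with Sesn1. The 4 measured erythrocyte markers had 0.58, -0.60 and -0.64. The part of any of these markers in the relation was not tested.

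**Figure D3:**
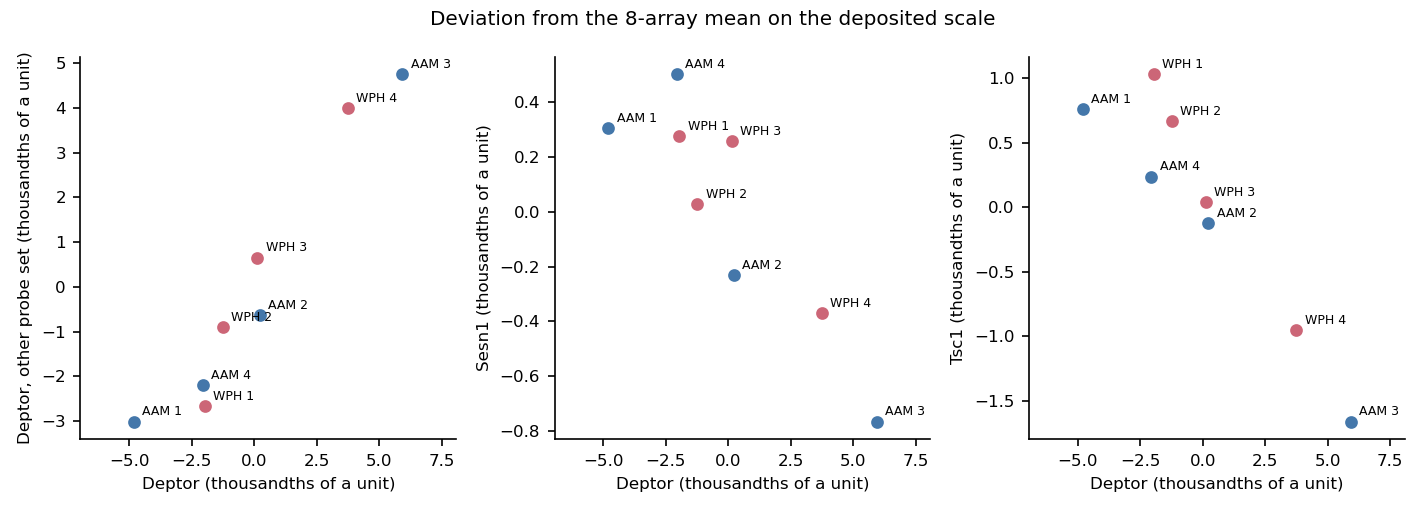
Deviations from the 8-array mean, in thousandths of a unit of the deposited scale, are plotted for Deptor (x axis) against its other probe set, Sesn1 and Tsc1 (y axes), 1 point per array, blue for AAM and red for WPH. AAM replicate 3 and WPH replicate 4 lie at the high end of Deptor in all 3 panels, and the 2 meals are intermixed along each relation.

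The genes around the complex were read from 6 lists grouped by role, and 0 of their 107 measured genes passed limma's adjusted threshold, against 0% of all genes. Of the 107, 5 had an unadjusted p below 0.05, against 3.39% of all genes. Of 27 measured genes of amino acid sensing (Rag GTPases, Ragulator, GATOR and their partners), 8 were higher and 19 lower after WPH. Their median standardized difference was -0.35. With quantile normalization it was 0.00, and so was the median of all genes. Smallest in p on this list was Wdr24, a subunit of GATOR2, at -1.59 (-3.19 to 0.10, exact permutation p = 0.057). Next came Kptn, a subunit of the KICSTOR scaffold, at -1.17. Insulin and energy inputs had 15 of 23 higher and a median of 0.36, which turned to -0.15 with median centring. There Prkab1, a regulatory subunit of the energy sensor AMPK, had -1.66 (-3.28 to 0.05, exact permutation p = 0.057), and Igf1r, the receptor of insulin-like growth factor, had 1.49, with both of its probe sets higher.

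Targets downstream of the complex were divided 9 higher and 12 lower, with a median of -0.10 that ran from -0.52 without AAM replicate 3 to 0.21 without AAM replicate 1. Eif4e, the cap-binding translation factor released by the complex, had -1.52 (exact permutation p = 0.086), and all 3 of its probe sets were lower after WPH, from -1.52 to -0.54. Eif4b, a helper of the same step, had 0.96 by its brighter probe set and -0.80 by the other. The list of mTORC2 and assembly factors split 5 and 5, with a median of 0.14 that was -0.48 with median centring. In it Rictor, the subunit that defines mTORC2, had 2.12 (0.26 to 3.88, exact permutation p = 0.057) by its brighter probe set, on which only AAM replicate 4 overlapped the WPH arrays, and its other probe set had -0.18. Tti2, part of a chaperone for such kinases, had 0.83 with 1 of its 3 probe sets higher.

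The remaining 2 lists hold genes that share known inducers with Ddit4 and Sesn1. Of 17 measured genes induced by glucocorticoids, 10 were higher and 7 lower after WPH, with a median of 0.07 that turned to -0.31 under quantile normalization and to -0.29 under median centring. Mt1, a metallothionein gene, had 3.00 (0.80 to 5.11, exact permutation p = 0.0286, the smallest possible) with groups that did not overlap, whereas Pik3r1, a subunit of PI3 kinase that stands in the insulin list as well, had -1.10. Of 12 measured p53 target genes, 5 were higher and 7 lower, with a median of -0.33 that was 0.27 with quantile normalization and -0.061 without AAM replicate 4. Phlda3, an inhibitor of Akt signalling, had 1.78 and Ccng1, which encodes cyclin G1, had 1.73, and for both every WPH array lay above every AAM array (exact permutation p = 0.0286 for each). Mt1, Phlda3 and Ccng1 were the 3 of the 107 genes whose groups did not overlap, against 2% of all genes, and they were named for a small p in their lists.

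**Figure D4:**
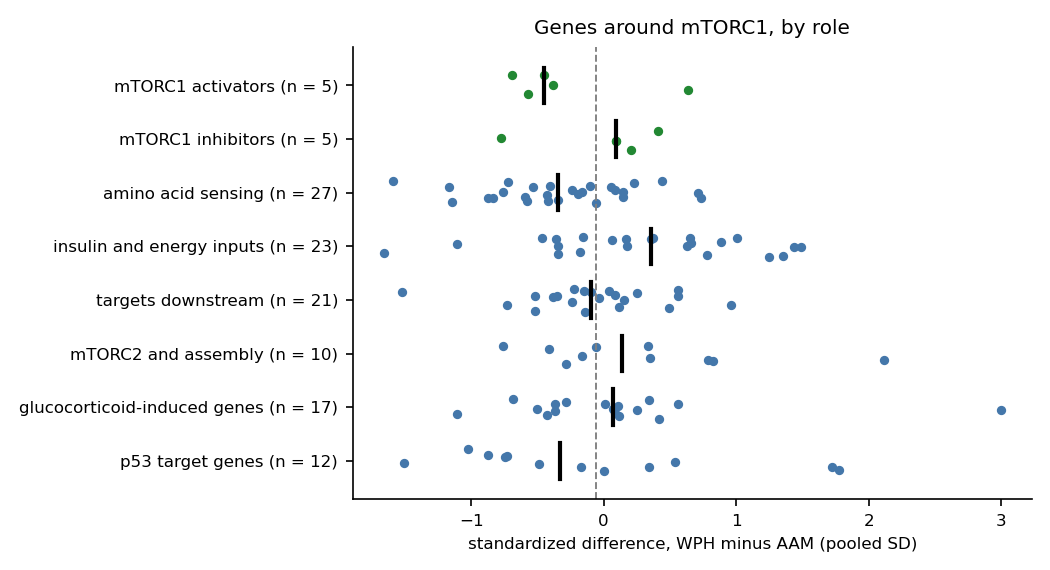
Each point is the standardized difference (WPH minus AAM, in pooled SDs) of 1 gene in the activators, the inhibitors and the 6 surrounding lists; black bars mark list medians and the dashed line the median of all genes, -0.06. List medians lie between -0.45 and 0.36, and the most distant points are Mt1 at 3.00 and Rictor at 2.12.

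The genes whose pattern over the 8 arrays was nearest to that of a member were found by the root mean square difference of z-scores. For Sesn1 these were Tnpo2 (0.141), Eif4g3 (0.144) and Rfx7 (0.147), and for Ddit4 they were Ebp (0.269), Sap30bp (0.280) and Asxl1 (0.297). For Mtor they were Mis18a (0.321), an uncharacterised locus named LOC102549303 (0.322) and Map2k5 (0.324). The distances describe 8 arrays, and no function is read from them.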

How the data were processed

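Biotin-labelled RNA from 100 ng of total RNA per rat was hybridised to Affymetrix 3' arrays, per the labels' protocols. The authors deposited 1 log2-like expression value per probe set and array. The submitters' processing notes name R 2.7.2. How they were normalized was not given in the sources used here, so scale and centring stay unknown. Array medians ran from 6.6627855 on AAM replicate 2 to 6.6628522 on AAM replicate 3. That spread is wider than the ranges of Mtor, Rptor, Mlst8, Tsc2 and both probe sets of Rheb, at 4.09 to 27.6 millionths. The same holds for the brighter probe set of Rps6kb1, at 17.7 millionths, and the dimmer one of Tsc1, at 6.79 millionths. Deviations given for these probe sets were not corrected for that spread. The labels call the samples biological replicates and name neither barrel nor array batch.

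Of 31099 probe sets, 57 controls were left out and 31042 tested. The platform annotation gave 1 symbol to 20826, several to 436 and none to 9780. The meals were compared with lmFit and eBayes of limma 3.58.1 (R 4.3.3, two-sided, prior df 0.549) over all probe sets, with Benjamini-Hochberg adjustment, a threshold of 0.05 and no filter on low values. Intervals are noncentral t with 6 degrees of freedom. Two-sided exact permutation tests used the 35 splits of the arrays or, for correlations, all 40320 orders. In lists, the probe set with the highest mean stands for its gene, and 107 of 119 surrounding genes were measured. Named were all members, the 2 genes of smallest limma p in each of 6 lists, and the 3 genes nearest in pattern to Mtor, Ddit4 and Sesn1. The 11 marker lists of cell types held 0 genes past the threshold. Members and lists were chosen with earlier results of these data known. Alternatives were quantile normalization, median centring, dropping dim probe sets, a block for the replicate number, leaving out arrays, a trended robust prior, unit SD per probe set, other probe sets and the exact test. Those for correlations were added after the data were seen.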

Additional observations from a re-analysis of the deposited data

Results flagged for a closer look

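Among the 30 groups of 4 arrays (15 probe sets in 2 meals), 1 had an array that Dixon's test set apart; chance gives about 1 in 20, or 1.5. For the brighter probe set of Rps6kb1, WPH replicate 3 was low: the gap to its nearest neighbour was 0.966 of the group's whole range. By the other probe set of this gene the ratio among the WPH arrays was 0.703.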

How the results depend on the processing

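With 4 arrays a group and no scanner files used here, precision is limited and signal over background is unknown. The count of called member probe sets was 0 under every alternative run; over all probe sets it was 0 except with unit SD per probe set, where it was 307, none of them a member. That setting fixes all spreads at 1 and so treats estimated SDs as known. With the replicate number as a block, 0 probe sets were called and 1367 had an unadjusted p below 0.05. Same-numbered arrays deviated together weakly or not at all (r = 0.16, 0.13, 0.06 and -0.07 for numbers 1 to 4, as deviations from group means); numbers 1 and 2 correlated best with their own number, and 3 and 4 with another. Median centring moved the median of all genes from -0.06 to -0.51. Quantile normalization left 2705 probe sets without any spread, and 1 of them was a member, the brighter one of Rheb. Such probe sets were left out there, so list medians under that setting can rest on fewer genes. The filter left out Mlst8 and the dimmer probe set of Tsc1. Of 163 values of single members under alternatives, 145 kept direction and call, and 18 changed sign without being called. The lowest adjusted p by limma was 0.731. Dropping dim probe sets, the trended robust prior, unit SD and the exact test leave the standardized difference as it was. Values under these settings could not change sign, so the count that kept direction overstates stability. The signs changed with quantile normalization for Mlst8 (0.14) and Deptor (-0.15), with median centring for Rps6kb1 (-0.30) and Tsc2 (-0.43), with the other probe set for Rheb (0.46), and without AAM replicate 3 and WPH replicate 4 together for Tsc2 (-0.030) and Sesn1 (-0.021). Leaving out 1 array in turn gave -0.71 to 0.29 for Mtor, -1.17 to 0.013 for Rptor, -0.87 to 0.0012 for Mlst8, -1.05 to -0.22 for Rheb, -0.37 to 0.94 for Deptor, -0.13 to 0.90 for Tsc1, -0.39 to 1.03 for Tsc2 and -0.43 to 0.68 for Sesn1. The cause of these changes was not tested. The adjusted p of Deptor with Tsc1 was 0.0045 with median centring, 0.0067 with group means removed and 0.045 without AAM replicate 4, and above the threshold under the other alternatives. With median centring Deptor with Sesn1 (adjusted p = 0.0077) and Tsc1 with Sesn1 (0.019) passed too, while Rheb with Deptor had r = -0.46. For the pairs that passed with median centring, r itself hardly moved under it. It went from -0.935 to -0.938 for Deptor with Tsc1 and from -0.887 to -0.901 for Deptor with Sesn1. Tsc1 with Sesn1 went from 0.854 to 0.859. For Deptor with Tsc1, r was -0.975 with group means removed and -0.943 without AAM replicate 4. An adjusted p depends on the p of all pairs of members, so passing alone does not show a stronger relation.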
